A study of Mus musculus with 4 samples.

Results

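Interferon-stimulated genes are the genes that cells switch on when interferon, a secreted alarm protein, binds its receptor. The set described here was chosen by name as 37 listed mouse genes, by a rule that uses no measured value, although earlier results of these data were known when the list was drawn up. Of these, 36 had a transcript cluster of their own on the array, a cluster being the array's unit for a gene, and Ifi44 was not analysed here. A floor of 5.235 (log2), equal to the median of the clusters' means, was used to leave out dim genes, and 34 of the 36 members reached it. Oasl2 and Mx1 did not. In all, 30702 genes had a cluster of their own and 17208 were above the floor.

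Bone marrow of mice was profiled on 4 Affymetrix arrays, 1 for each of 4 groups. The arrays held control marrow, marrow after cisplatin, an anticancer drug that binds DNA, after astragalus (Astragalus membranaceus, a herb of Chinese medicine) and after electro-acupuncture, in which current is passed through needles. Marrow was spun from tibias after 2 weeks of treatment, and 6 marrow samples were mixed before extraction, read here as 6 per group although the design text does not say so outright. The sources used here do not give strain, sex, age or doses, nor whether the astragalus and electro-acupuncture mice had cisplatin too. With 1 array per group there is no replicate check of any difference below, no test was run, and precision is limited by there being 4 arrays. The 4 arrays had median levels between 5.15 and 5.31 over all clusters, and the astragalus array had the widest spread, 7.20 between its 5th and 95th percentiles against 6.80 to 6.83 on the others. Genes typical of marrow were bright on each array: the neutrophil gene S100a8 stood at the scale's ceiling of 19.93 on all 4 and the red cell gene Alas2 between 14.64 and 15.39.

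As background, type I interferons (alpha and beta) bind a receptor made of Ifnar1 and Ifnar2, whose kinases Jak1 and Tyk2 phosphorylate Stat2. Stat2 works with Irf9 in a transcription factor complex that binds the interferon-stimulated response element, or ISRE. Interferon gamma uses another receptor, and its signal reaches a different site called GAS. The induced proteins detect, degrade or sequester viral nucleic acid, and in marrow interferon is known to push blood stem cells into division.

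A RefSeq promoter window (GRCm38.p6, 250 bases before the gene's start to 50 after it) was matched by symbol for 28 of the 37 genes. Parts of these windows are shown because many of them hold letters that match the core of the ISRE. The ISRE core was searched as GAAANNGAAA on both strands and GAS as TTCNNNGAA, which reads the same on both. Matches of either kind may overlap each other. An ISRE core was found in 16 of the 28 genes (57.1%), against 3.99% of all 27025 genes with a window. GAS was found in 8 of 28 (28.6%), against 9.55%. Such a match is a description of the letters and not of binding. Below are the 250 bases before the start of Igtp (chr11:58199306-58199555, plus strand) and Rsad2 (chr12:26456453-26456702, minus strand), the members with the largest differences between arrays, with ISRE cores and GAS matches in capitals. Igtp held 1 of each, and Rsad2 held 1 ISRE core.
Igtp: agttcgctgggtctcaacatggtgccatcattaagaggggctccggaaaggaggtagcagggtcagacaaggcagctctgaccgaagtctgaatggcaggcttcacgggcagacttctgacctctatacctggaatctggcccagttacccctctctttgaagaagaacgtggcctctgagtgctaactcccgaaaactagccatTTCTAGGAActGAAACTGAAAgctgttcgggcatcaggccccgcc
Rsad2: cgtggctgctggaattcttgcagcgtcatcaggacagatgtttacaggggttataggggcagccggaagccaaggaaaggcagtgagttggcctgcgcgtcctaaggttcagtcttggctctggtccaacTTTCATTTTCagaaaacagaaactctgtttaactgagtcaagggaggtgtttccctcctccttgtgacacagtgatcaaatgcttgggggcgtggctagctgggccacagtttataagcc

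Shorter stretches, 15 bases to each side of the ISRE cores (capitals), are given for genes of the families described below. Their like matches can so be set beside their unlike values. They lie at chr4:156200860-156200911 (Isg15, minus strand), chr5:120907515-120907560 (Oas1a, minus), chr5:120777710-120777749 (Oas3, minus), chr19:34640770-34640828 (Ifit1, plus), chr19:34583358-34583431 (Ifit3, plus) and chr11:48871420-48871465 (Irgm1, minus).
Isg15: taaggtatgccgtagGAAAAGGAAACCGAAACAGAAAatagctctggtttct
Oas1a: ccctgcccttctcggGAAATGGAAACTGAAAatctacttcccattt
Oas3: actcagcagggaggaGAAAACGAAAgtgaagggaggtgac
Ifit1: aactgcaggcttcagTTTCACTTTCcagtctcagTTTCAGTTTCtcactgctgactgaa
Ifit3: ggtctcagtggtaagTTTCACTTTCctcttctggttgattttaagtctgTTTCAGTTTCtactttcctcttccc
Irgm1: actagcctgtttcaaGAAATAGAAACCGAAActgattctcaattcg

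**Figure D1:**
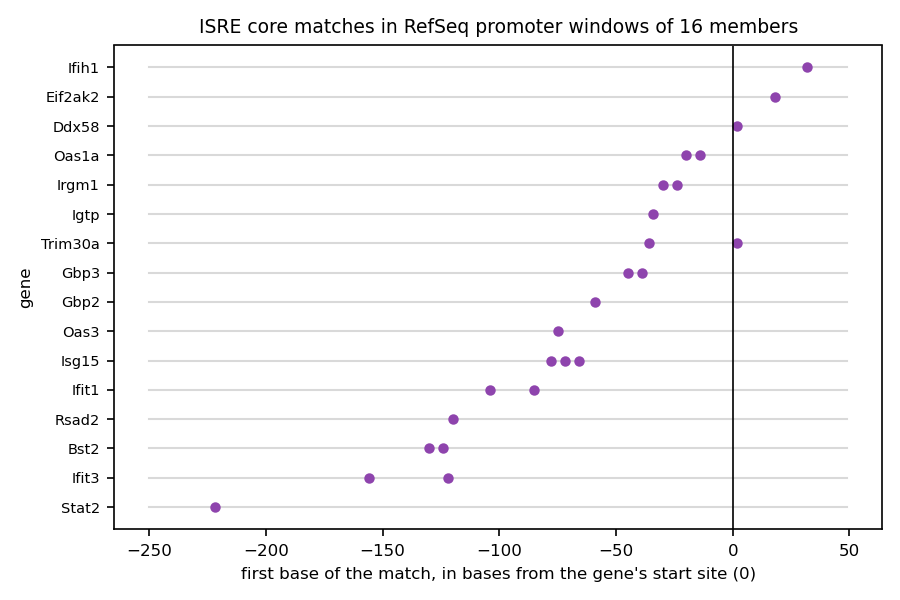
Positions of ISRE core matches in the promoter windows of the 16 members that hold one. Each point is the first base of a match in bases from the gene's start site (0 on the horizontal axis), and the grey line is the window searched. The matches run from 222 bases before the start (Stat2) to 32 bases after it (Ifih1).

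Medians of members with and without an ISRE core were not tested against each other. Between cisplatin and control the median log2 difference was 0.06 over the 16 members above the floor with a core and -0.07 over the 10 with a window but no core. Between astragalus and control both medians were 0.12 (0.115). Between electro-acupuncture and control they were 0.05 (0.045) and -0.07. Genes with a core lay at both ends of each comparison, from -0.52 to 1.09 in cisplatin, from -0.55 to 1.60 in astragalus and from -0.58 to 1.44 in electro-acupuncture.

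Across the 4 arrays most members differed little, and 2 genes passed 2-fold. The gap between a gene's highest and lowest array had a median of 0.35 on the log2 scale over the 34 members, against 0.44 over all genes above the floor. A gap of at least 2-fold was seen for 2 of 34 members, Igtp and Rsad2, against 13.4% of all genes. A gap of at least 1.5-fold as deposited was seen for 6 members, the others being Rtp4, Oas1a, Isg20 and Xaf1, against 34.7% of all genes. These are counts on 4 arrays and not a test.

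**Figure D2:**
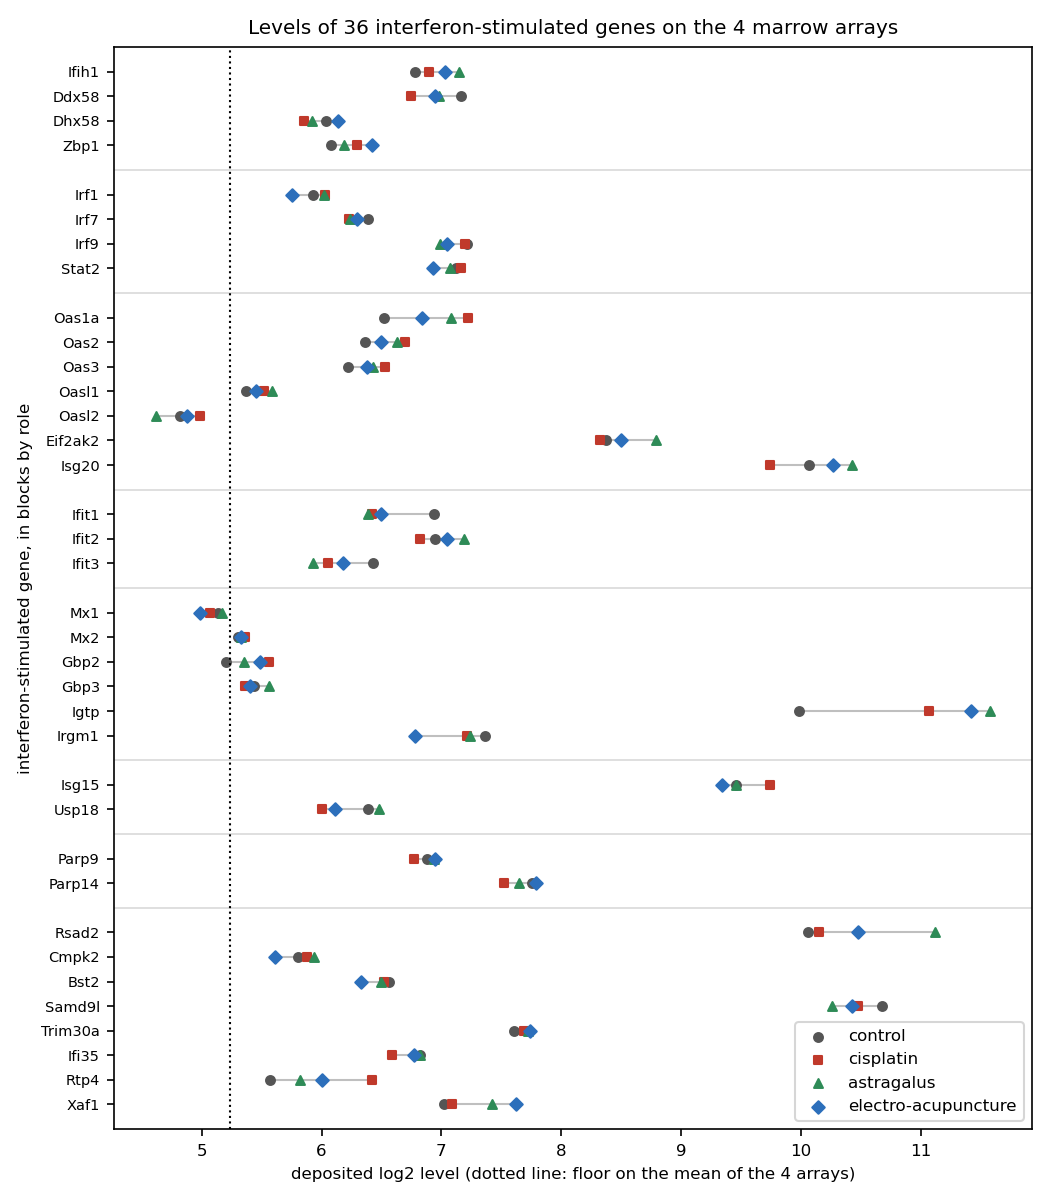
Deposited log2 level of each of the 36 measured members on the 4 arrays (horizontal axis), in blocks by role, with 1 symbol per array and a grey line from a gene's lowest to its highest level. The dotted line is the floor of 5.235. Levels are comparable along a row and not between rows, because each gene has its own probes; Igtp, with 9.98 in control and 11.07 to 11.58 on the other arrays, has the longest row.

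The gene with the largest differences was Igtp (cluster TC1100004265.mm.1), also called Irgm3, an immunity-related GTPase that acts at the membranes around intracellular parasites. Its log2 level was 9.98 in control, 11.07 with cisplatin, 11.58 with astragalus and 11.42 with electro-acupuncture. The control array was the low one, and the other three lay within 0.51 of each other. Their order is not settled, since astragalus stood above electro-acupuncture as deposited (difference 0.16) and below it (-0.16) with the loess trend removed (a smooth fit of the difference on the mean level). Igtp was 2.13-fold higher in cisplatin than in control, 3.03-fold in astragalus and 2.71-fold in electro-acupuncture. In these comparisons, which share the control array, 1.51%, 1.70% and 1.52% of the genes above the floor were at least as far above control. Igtp stayed at least 2-fold above control under each alternative tried, at differences of 1.04 to 1.09 in cisplatin, 1.20 to 1.60 in astragalus and 1.32 to 1.58 in electro-acupuncture.

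Other GTPase genes differed less between arrays than Igtp. Irgm1, a GTPase of the same family that is needed for control of intracellular bacteria and for stem cell maintenance, was at 7.36 in control, 7.21 with cisplatin, 7.24 with astragalus and 6.78 with electro-acupuncture. Here electro-acupuncture was the low array, by 0.58 against control. Irgm2, which is not a member but is the gene beside Igtp on chromosome 11, was at 7.29, 7.12, 7.88 and 7.24 in the same order, with astragalus the high array. The guanylate-binding protein gene Gbp2 was at 5.20 in control, under the floor, and at 5.56, 5.35 and 5.49 in cisplatin, astragalus and electro-acupuncture, so control was the low array for it as for Igtp. Gbp3 ran from 5.36 to 5.56 and Mx2, a dynamin-like GTPase that blocks viruses, from 5.30 to 5.36. Mx1 ran from 4.99 to 5.17, all below the floor. These levels lie close to the floor, where a difference can be hidden.

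The second member past 2-fold was Rsad2 (cluster TC1200001552.mm.1), which encodes viperin, an enzyme that makes a chain-ending nucleotide from CTP. Its level was 10.06 in control, 10.15 with cisplatin, 11.12 with astragalus and 10.48 with electro-acupuncture. Astragalus was the high array, and control and cisplatin differed by 0.09. The astragalus level was 2.08-fold that of control, 1.96-fold that of cisplatin and 1.56-fold that of electro-acupuncture. The 2-fold difference depends on the scaling: 1.06 as deposited, it was 0.97 with each array centred on its median, 0.82 after quantile normalization and 0.68 with the loess trend removed. Of all genes above the floor, 5.38% were as far above control there.

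Cmpk2, a mitochondrial nucleotide kinase whose gene lies next to Rsad2 on chromosome 12, differed less between arrays. It was at 5.80 in control, 5.88 with cisplatin, 5.94 with astragalus and 5.61 with electro-acupuncture. Astragalus was the high array for both genes, 0.14 above control for Cmpk2 and 1.06 for Rsad2, and electro-acupuncture was the low array for Cmpk2 alone of the pair. The levels of Cmpk2 lie close to the floor, where a difference can be hidden.

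Oas1a, Oas2 and Oas3, whose enzymes sense double-stranded RNA and make the oligoadenylate that switches on RNase L, were a little higher on the 3 treatment arrays. Oas1a was at 6.52 in control, 7.22 with cisplatin, 7.08 with astragalus and 6.84 with electro-acupuncture. Oas2 was at 6.36, 6.70, 6.63 and 6.50 in the same order, and its neighbour on chromosome 5, Oas3, at 6.22, 6.53, 6.43 and 6.38. The 3 genes ran in the same order under each scaling tried, with cisplatin high, then astragalus, electro-acupuncture and control. In size the cisplatin differences from control were 1.62-fold for Oas1a, with 5.17% of all genes as far above control, and 0.34 and 0.31 on the log2 scale for the other two.

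Related copies of Oas1a differed less from control in cisplatin. Oas1b, not a member, was at 6.77, 6.80, 6.57 and 6.40 in the order control, cisplatin, astragalus and electro-acupuncture, and Oas1g, also not a member, at 6.34, 6.48, 6.44 and 6.44. These copies resemble each other, so the split of signal between them is uncertain. Oasl1 ran from 5.37 in control to 5.59 in astragalus, and Oasl2 from 4.62 in astragalus to 4.99 in cisplatin, below the floor.

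The other enzymes of this group that act on RNA or respond to it were highest in astragalus as deposited. Isg20, an exonuclease that degrades viral RNA, was at 10.07 in control, 9.74 with cisplatin, 10.43 with astragalus and 10.27 with electro-acupuncture. Cisplatin was the low array, and astragalus was 1.61-fold above it. Eif2ak2, the kinase PKR that stops translation on double-stranded RNA, was at 8.37, 8.32, 8.79 and 8.50 in that order of arrays. The Isg20 difference from cisplatin was 0.69 as deposited and 0.34 with the loess trend removed, where electro-acupuncture was the higher of the pair (-0.14 for astragalus against it).

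Genes of the IFIT family, whose proteins bind viral RNA that lacks the host's cap, were split. Ifit1 was at 6.94 in control, 6.42 with cisplatin, 6.39 with astragalus and 6.50 with electro-acupuncture. Ifit3 was at 6.43, 6.05, 5.93 and 6.18 in the same order. Both had their highest level in control, with Ifit1 1.43-fold, 1.46-fold and 1.36-fold lower on the treatment arrays. Ifit2 was at 6.95, 6.82, 7.19 and 7.05, so it was lowest in cisplatin and highest in astragalus. Ifit2 and Ifit3 are neighbours on chromosome 19, and Ifit1 lies 2 protein-coding genes away from Ifit3. Ifit3b, a close copy of Ifit3 that is not a member, ran from 5.22 in control to 5.39 in electro-acupuncture.

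**Figure D3:**
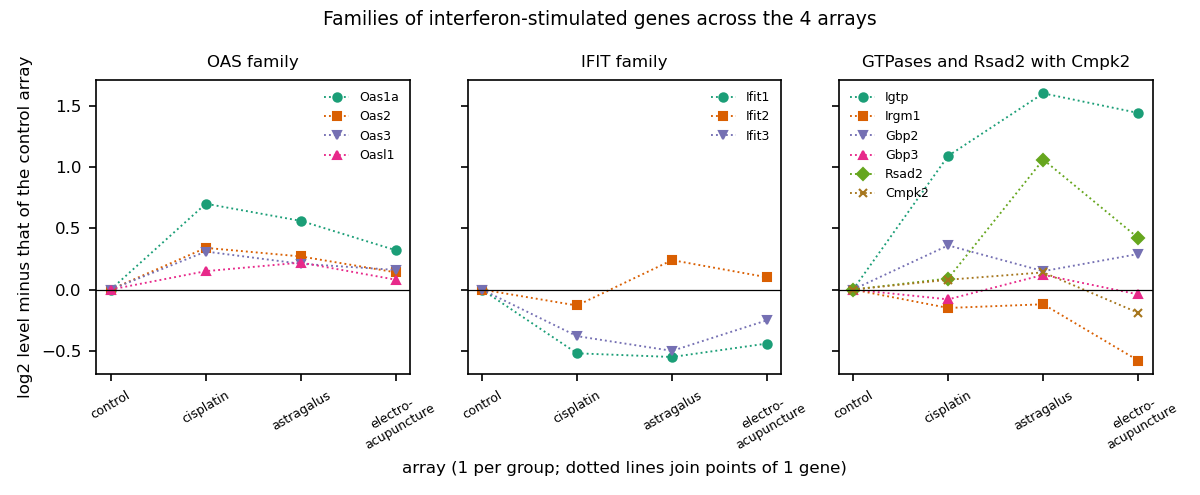
Log2 level minus that of the control array for 4 OAS genes, 3 IFIT genes, and 4 GTPase genes with the neighbours Rsad2 and Cmpk2. There is 1 array per group, so the points have no error, and dotted lines join the points of a gene without implying an order of groups. Oas1a, Oas2 and Oas3 lie above control by 0.31 to 0.70 in cisplatin, and Ifit1 and Ifit3 lie below it by -0.52 and -0.38.

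Sensors of foreign nucleic acid showed small differences from control, in both directions. Ddx58, which encodes the RNA sensor RIG-I, was at 7.16 in control and at 6.75, 6.98 and 6.95 in cisplatin, astragalus and electro-acupuncture. Ifih1, which encodes the sensor MDA5 of long double-stranded RNA, was at 6.78 in control and at 6.90, 7.15 and 7.03 on the others. Control was thus the high array for one RNA sensor and the low array for the other. Zbp1, a sensor of Z-form nucleic acid that can trigger cell death, ran from 6.08 in control to 6.42 in electro-acupuncture. Dhx58, whose product LGP2 modulates both RNA sensors, ran from 5.85 in cisplatin to 6.14 in electro-acupuncture. All 4 were higher in electro-acupuncture than in cisplatin, by 0.12 to 0.29.

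The transcription factors of the response differed little. Stat2 ran from 6.93 to 7.16 and Irf9 from 6.99 to 7.21. Irf7, which amplifies interferon alpha production, ran from 6.23 to 6.39. All 4 factors were lower in electro-acupuncture than in control, by 0.09 to 0.19. Irf1, a factor induced above all by interferon gamma, ran from 5.75 to 6.03. Irf1 was the sole member with a second cluster, and that cluster, with the lower mean, read 5.40 in control, 4.54 with cisplatin, 5.07 with astragalus and 4.82 with electro-acupuncture. The clusters of Irf1 thus disagreed, the first being 0.10 higher and the second 0.86 lower in cisplatin than in control, with most of the second below the floor.

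Isg15, a ubiquitin-like protein that is attached to other proteins, was at 9.46 in control, 9.74 with cisplatin, 9.46 with astragalus and 9.34 with electro-acupuncture. Usp18, the protease that removes Isg15 and also dampens the receptor, was at 6.39, 6.00, 6.48 and 6.11 in the same order. Cisplatin was the high array for Isg15 and the low array for Usp18, with differences from control of 0.28 and -0.39. Parp9 and Parp14, neighbouring genes on chromosome 16 for ADP-ribosyltransferase family proteins, ran from 6.77 to 6.95 and from 7.52 to 7.79. Both were highest in electro-acupuncture and lowest in cisplatin as deposited, but for Parp14 astragalus and cisplatin differed by -0.01 with the loess trend removed, against 0.13.

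Among the remaining effectors Rtp4, a chaperone of receptors that also binds viral RNA, was at 5.57 in control, 6.42 with cisplatin, 5.82 with astragalus and 6.00 with electro-acupuncture. Cisplatin was the high array, 1.80-fold above control and 1.52-fold above astragalus. Xaf1, a promoter of apoptosis, was at 7.02, 7.09, 7.42 and 7.62 in the same order, so electro-acupuncture was the high array, 1.52-fold above control. Samd9l, a growth-restraining gene of blood cells, was highest in control at 10.68 and lowest in astragalus at 10.26. Bst2, the tetherin that holds viruses at the membrane, ran from 6.33 to 6.56. Trim30a, a ubiquitin ligase family gene that restrains inflammatory signalling, ran from 7.61 to 7.74 and Ifi35 from 6.59 to 6.82. Of these 6 genes, Rtp4 and Xaf1 were the ones whose arrays lay at least 1.5-fold apart as deposited.

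Set against control, few members passed 2-fold. In cisplatin 17 of 34 members were higher and 17 lower, with a median log2 difference of 0.02 (0.015), against 50.6% higher and a median of 0.01 over all genes. At least 2-fold higher was 1 member (background 2.01%) and 2-fold lower was none (0.965%). At 1.5-fold, a size added after it was seen that few members reached 2-fold, 3 were higher (7.09%) and none lower (4.28%). In astragalus 21 were higher, 11 lower and 2 equal, with a median of 0.10 against 0.05 over all genes. As deposited, both 2-fold and 1.5-fold higher were 2 members (6.13% and 14.4%) and none was lower by either size (2.68% and 6.67%). Samd9l went from -0.42 to -0.66 after quantile normalization and -0.79 with the loess trend removed, past 1.5-fold lower. Ifit1 went from -0.55 to -0.61 with the loess trend removed and -0.64 with median centring. Ifit3 went from -0.50 to -0.59 with median centring, also past 1.5-fold lower. In electro-acupuncture 19 were higher and 15 lower, with a median of 0.05 against 0.04. At least 2-fold higher was 1 member (4.16%) and 1.5-fold higher 2 (11.2%), with none lower by either size as deposited (3.11% and 6.85%). Irgm1 went from -0.58 to -0.60 with the loess trend removed, -0.59 after quantile normalization and -0.64 with median centring, each past 1.5-fold lower. Xaf1 went from 0.60 to 0.54 with median centring.

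Set against cisplatin, no member reached 2-fold. In astragalus 19 were higher and 15 lower, with a median of 0.03 against 0.06 over all genes and a 2-fold background of 2.00% higher and 1.92% lower. At 1.5-fold, as deposited, Rsad2 and Isg20 were higher (9.37%) and Rtp4 was lower (5.00%). Isg15, at -0.28 as deposited, was at -0.59 with the loess trend removed. In electro-acupuncture 19 were higher and 15 lower, with a median of 0.06 against 0.02, a 2-fold background of 1.32% higher and 2.59% lower, and no member past 1.5-fold (6.03% and 5.27%). The largest of these differences were 0.53, for Isg20 and for Xaf1. Between astragalus and electro-acupuncture 20 were higher in astragalus, 13 lower and 1 equal, with a median of 0.09 (0.085) against 0.06. No member reached 2-fold (0.657% and 0.872%), and as deposited Rsad2 was past 1.5-fold higher (5.68%) and none lower (4.18%). That Rsad2 difference, 0.64, was 0.36 after quantile normalization and 0.33 with the loess trend removed.

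**Figure D4:**
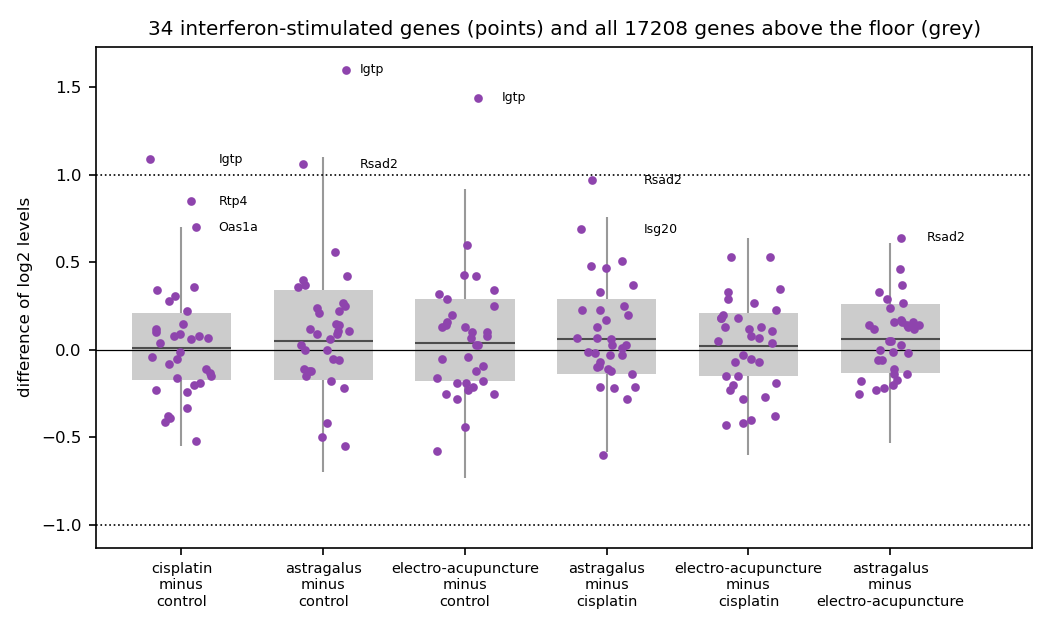
Difference of log2 levels between pairs of arrays (vertical axis) for the 34 members above the floor, 1 point each, over all 17208 genes above the floor. Grey boxes run from the 25th to the 75th percentile of all genes with the median as a line, and grey whiskers run from the 5th to the 95th percentile. Dotted lines mark 2-fold, and Igtp at 1.09, 1.60 and 1.44 and Rsad2 at 1.06 are the points beyond them.

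Upstream of these genes, interferon ligands were near or below the floor. Of 18 listed ligand genes 17 had a cluster of their own and 6 were above the floor. Ifnb1 (interferon beta) read 4.94, 4.89, 5.09 and 4.93 and Ifng (interferon gamma) 4.14, 4.36, 4.16 and 4.55 in control, cisplatin, astragalus and electro-acupuncture, all below it. Ifna4, an interferon alpha, was at 5.26 in control and at 6.34, 6.13 and 6.03 on the others, a difference of 1.08 for cisplatin from a control level close to the floor. Ifna13, below the floor on the mean, was at 4.58 in control and 5.71 in electro-acupuncture. Interferon alpha genes are near copies, so signal cannot be assigned to one of them with certainty.

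The receptor genes were measured well above the floor for all chains but Ifnlr1 of the lambda receptor, which ran from 5.40 to 5.67. Ifnar1 was at 8.01 in control, 7.85 with cisplatin, 8.08 with astragalus and 7.73 with electro-acupuncture, and Ifnar2 at 12.56, 12.17, 12.75 and 12.43. Both chains of the type I receptor were highest in astragalus as deposited. Ifngr1 was at 8.50, 8.60, 9.21 and 8.84 and Ifngr2 at 8.20, 8.17, 8.51 and 8.63, and Il10rb ran from 7.04 to 7.19. The largest receptor difference as deposited was that of Ifngr1 between astragalus and control, 0.71. Of the kinases, Jak1 was at 10.21, 10.32, 10.79 and 10.20, Jak2 at 9.77, 9.93, 10.30 and 9.91, and Tyk2 between 6.31 and 6.43.

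Of the 19 listed genes of the pathway that induces interferon, 15 were above the floor, and their median differences from control were -0.12 for cisplatin, 0.05 for astragalus and -0.08 for electro-acupuncture. Unc93b1, which carries nucleic acid-sensing Toll-like receptors to endosomes, was at 8.64 in control, 7.68 with cisplatin, 7.75 with astragalus and 7.56 with electro-acupuncture. Control was the high array for this gene, and electro-acupuncture was the array at least 2-fold below it as deposited (difference -1.08). Cisplatin and astragalus lay at -0.96 and -0.89, and passed 2-fold with median centring (cisplatin, -1.01) or the loess trend removed (astragalus, -1.09). Inhibitors of interferon signalling and nucleic acid sensing were lower than control in 8 of 8 genes above the floor in cisplatin and in electro-acupuncture. Their medians were -0.16 (-0.155) and -0.30 (-0.295), with ranges of -0.55 to -0.02 and -0.77 to -0.06. Over all genes, 50.6% and 53.7% were higher than control in these 2 comparisons. In cisplatin the count was 7 of 8 after quantile normalization. In astragalus 4 of 8 were lower as deposited and 8 of 8 with the loess trend removed. None of these inhibitors was past 2-fold.

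A longer list of 48 other interferon-induced genes, 41 of them above the floor, had median differences from control of 0.07 for cisplatin, 0.04 for astragalus and -0.05 for electro-acupuncture. The genes of this list past 2-fold were a pair for membrane proteins that block virus entry, 2 of 41 above control in each comparison. Over all genes, 2.01%, 6.13% and 4.16% were at least 2-fold higher in cisplatin, astragalus and electro-acupuncture. Ifitm2 was at 7.54 in control, 9.58 with cisplatin, 10.51 with astragalus and 10.24 with electro-acupuncture. Ifitm3 was at 11.66, 13.17, 13.33 and 13.24 in the same order. For both genes control was the low array, with Ifitm2 4.11-fold, 7.84-fold and 6.50-fold and Ifitm3 2.85-fold, 3.18-fold and 2.99-fold above it. Ifitm1, which lies next to Ifitm2 on chromosome 7, was 0.56, 0.38 and 0.74 above control. These genes resemble each other, so the split of their signal is uncertain.

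Of 11 listed targets of interferon gamma and genes of antigen processing, 9 were above the floor. As deposited, the cisplatin array had 1 of these 9 at least 2-fold above control (all genes 2.01%). The astragalus array had 2 (6.13%), and so did the electro-acupuncture array (4.16%). Cxcl9, a chemokine for T cells that interferon gamma induces, was at 6.37 in control, 8.52 with cisplatin, 7.97 with astragalus and 8.48 with electro-acupuncture. Control was again the low array, by 4.44-fold, 3.03-fold and 4.32-fold. Cxcl10, a chemokine for the same receptor, stayed below the floor at 4.41, 4.94, 4.64 and 4.88. B2m, the light chain of MHC class I, was at 16.82, 17.39, 18.14 and 18.31 in the same order. Its differences of 1.32 in astragalus and 1.49 in electro-acupuncture were 0.78 and 1.17 with the loess trend removed. The transporter gene Tap1 ran from 6.75 to 6.94 and the immunoproteasome gene Psmb8 from 6.88 to 7.18.

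**Figure D5:**
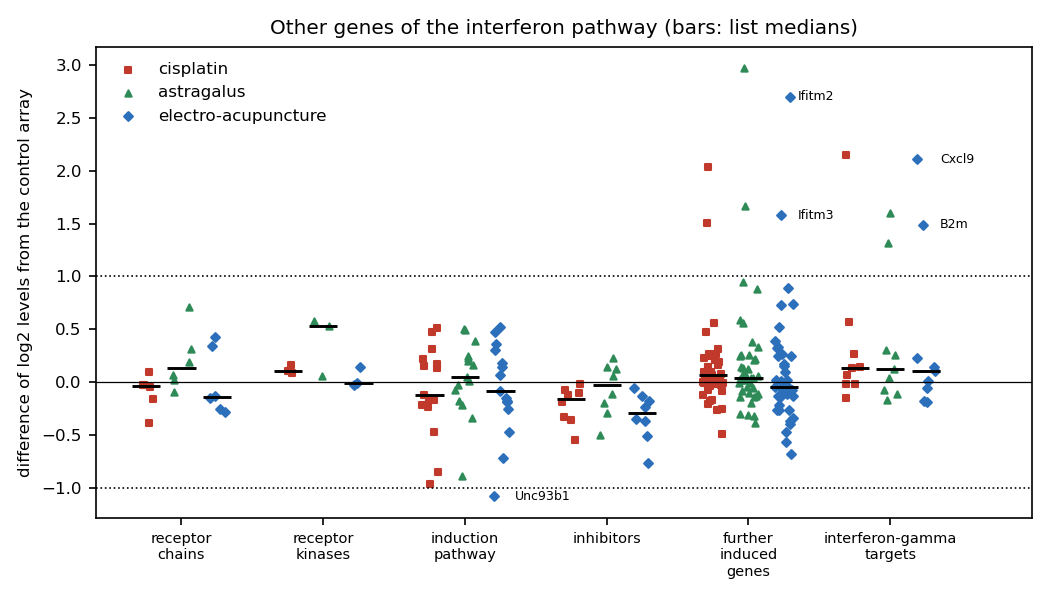
Difference of log2 level from the control array for genes above the floor in 6 lists of the interferon pathway outside the 37 members. Each point is a gene, coloured by array, and black bars are list medians. Genes past 2-fold (dotted lines) in electro-acupuncture are named, with Ifitm2 at 2.70, Cxcl9 at 2.11, Ifitm3 at 1.58, B2m at 1.49 and Unc93b1 at -1.08.

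Markers of the cell types that could carry these transcripts also moved between arrays, and their part in the results was not tested. In a mixed tissue, fewer cells of a type and less RNA per cell cannot be told apart. As background to all marker counts below, 50.6%, 55.3% and 53.7% of all genes were above control in cisplatin, astragalus and electro-acupuncture. At least 2-fold higher were 2.01%, 6.13% and 4.16% in the same order, and at least 2-fold lower 0.965%, 2.68% and 3.11%. Of 8 plasmacytoid dendritic cell markers above the floor (11 listed), the type known for interferon alpha production, the cisplatin array was below control for 8, astragalus for 8 and electro-acupuncture for 6, with list medians of -0.44 (-0.435), -0.35 (-0.345) and -0.21 (-0.205). Their median level was 7.0 in control, and 6.52, 6.44 and 6.56 on the treatment arrays. Spib was past 2-fold lower on all 3 (-1.55, -1.17 and -1.61) and Siglech in astragalus (-1.17). Bst2, a member, is also on that list. Whether these lower levels are separate from those of the B cell markers below was not tested.

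B cell markers were below control for 8, 7 and 7 of 8 genes in cisplatin, astragalus and electro-acupuncture, with medians of -0.94 (-0.935), -0.74 and -0.99. Their median level was 8.38 in control, and 7.62, 7.41 and 7.40 on the treatment arrays. Ebf1 (-1.41, -1.01 and -1.21) was past 2-fold lower on all 3 arrays, Cd79a, Cd79b, Ms4a1, Pax5 and Vpreb3 on at least 1, and Dntt was past 2-fold higher in electro-acupuncture than in cisplatin (1.09).

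Of the other types, monocyte and macrophage markers had medians of 0.07 (0.065), 0.27 and 0.40 over 12 genes. They were above control for 7, 8 and 10 genes and below it for 4, 4 and 2, the lowest at -0.44, -0.48 and -0.30. Vcam1 (1.22, 1.31 and 1.56) was past 2-fold above control on all 3 arrays, Cd68 (1.22) and C1qb (1.12) in electro-acupuncture. C1qb lay below the floor in control, cisplatin and astragalus (5.13, 5.18 and 4.98). Its mean reached the floor only through the 6.25 of electro-acupuncture. T and NK cell markers had medians of 0.10 (0.095), 0.04 (0.035) and 0.07 (0.065) over 10 genes with levels close to the floor (medians of 5.57 to 5.75). On each treatment array 6 of them were above control and 4 below it, the lowest at -0.36, -0.45 and -0.35. Nkg7 was the one past 2-fold higher (1.32, 1.77 and 1.33). Of the 11 neutrophil markers, S100a8 and S100a9 sat at the ceiling on all 4 arrays and could not differ. Over the other 9 the medians were 0.16, 0.63 and 0.09 as deposited, against 0.00, 0.42 and 0.00 over all 11, a choice made after this was seen. Neutrophil markers below control were 2 in cisplatin (lowest -0.37), 0 in astragalus and 1 in electro-acupuncture (-0.17). As deposited, Mpo was past 2-fold higher on all 3 arrays (1.10, 2.05 and 1.55). Elane was so in astragalus and electro-acupuncture (1.59 and 1.36), and Lcn2 and Mmp8 in astragalus (1.47 and 1.22), also as deposited. Red cell markers had medians of -0.22, 0.53 and 0.18 over 5 genes as deposited, and of -0.29, 0.12 (0.115) and -0.13 with the loess trend removed.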

How the data were processed

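Total RNA of mouse bone marrow, extracted with Trizol and biotin-labelled, was read on 4 arrays. The authors deposited 1 log2 value per cluster and array, and Affymetrix Expression Console is named in the submitters' processing notes. The sources used here do not give its version or method of summary. That the unit is log2 was read from the values (2.70 to a ceiling of 19.93). Of 65956 clusters, 31258 carried 1 gene after symbols were updated through RefSeq (GRCm38.p6), 1492 several, and 33206 are unnamed here. The cluster with the highest mean stood for a gene. Genes with a mean at or above 5.235 were compared by differences of log2 levels, in 6 pairs of arrays, and counted at 2-fold (a difference of 1). The members and lists were chosen with earlier results of these data known. All 37 members are named; of the other lists, genes at or past 2-fold in a comparison, the receptor chains and the kinases, besides genes named for their place beside or likeness to a member or to one another, which were chosen after their values were seen. Simulated data were used to test the steps. Quantile normalization, median centring, removal of a loess trend, other filters and the mean of a gene's clusters were tried as alternatives. Python 3.11.15, pandas 2.3.3 and statsmodels 0.14.6 (loess span 0.3) were used.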

Additional observations from a re-analysis of the deposited data

How the results depend on the processing

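Other settings tried were quantile normalization, median centring, removal of the loess trend, no filter, a filter at the 75th percentile, and the mean of a gene's clusters. A median was taken as moved past 0.1 on the log2 scale, since there is no replicate spread. In astragalus against control 1 member was at least 2-fold higher under quantile normalization, 1 under median centring and 1 with the loess trend removed, against 2 as deposited, the lost gene being Rsad2. With the filter at the 75th percentile, which left 18 members, the median difference was 0.20 for astragalus and 0.18 for electro-acupuncture against cisplatin, where all genes had 0.18 and 0.01; fewer members entered. Counted at 1.5-fold as deposited (added after the data were seen), the members higher were 3 in cisplatin and 2 in electro-acupuncture against control, and 2 and 1 in astragalus against cisplatin and electro-acupuncture, with 1 lower against cisplatin. The 1.5-fold counts were not repeated under the other settings. The other medians and the other 2-fold counts of members stayed within these limits. The members simply higher or lower did not always: in astragalus against control they were 21 and 11 as deposited, 17 and 15 with median centring and 19 and 15 with the loess trend removed, against cisplatin 19 and 15 became 16 and 18 with median centring, and against electro-acupuncture 20 and 13 became 16 and 18 with the loess trend removed. No 2-fold difference of the genes recomputed turned its sign. Of 114 values (members past 1.5-fold, pathway genes past 2-fold and pathway list medians), 43 moved past 0.1 with the loess trend removed, 37 under quantile normalization and 2 with no filter, and 6 of 96 moved with the stricter filter. Median centring shifts all genes of a comparison alike, by less than that. Over all genes the share higher among those past 2-fold went from 69.6% as deposited to 58.9% (quantile) and 47.6% (loess) for astragalus against control, from 51.0% to 33.8% and 22.7% against cisplatin, and from 43.0% to 26.9% and 21.6% against electro-acupuncture. No paired analysis was possible because each group has 1 array.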
